A study of Mus musculus with 3 samples.

Results

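The genes described here are 10 matricellular and closely related matrix genes of the mouse: the tenascins Tnc, Tnn and Tnxb, the thrombospondins Thbs1, Thbs2 and Comp, and Postn, Cthrc1, Sparc and Fn1. They were taken by symbol from the 32285 genes of each deposited matrix, and all 10 were found. The list had been drawn up with measured levels of these genes in these data known, so everything below is a description. Single cells of femoral arteries from 8-week-old wild-type male mice were sequenced in 3 libraries: Sham (sham operation, with no time of harvest given in the labels), D2 (2 days after a wire injury of the artery) and D7 (7 days after it). Each library pooled live, DAPI-sorted single cells of 6 mice, and the Chromium 3' v3 assay counted UMIs (unique molecular identifiers, 1 per captured transcript). With 1 library per group there is no replicate and no test. Every interval below is an exact 95% interval that covers counting error only, not the spread between mice.

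Matricellular proteins are secreted into the extracellular matrix, where they act less as scaffold than as modulators: they bind collagens, growth factors, proteases, integrins and other surface receptors. Most are scarce in resting adult tissue and abundant in development and in wounds. In arteries they are known from the adventitia and from the neointima, the layer that forms inside the vessel after injury.

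No cell annotation was used here. Classes were rebuilt by clustering with all members and the other matricellular genes listed left out of the clustering, and named from marker genes. The fibroblast-like class had 3858 Sham, 108 D2 and 3163 D7 cells, the smooth muscle-like class 149, 16 and 304, the endothelial-like class 475, 92 and 396, and the monocyte/macrophage-like class 422, 4470 and 2822. The lymphatic endothelial-like class held 318, 30 and 137 cells and the Schwann-like class 57, 89 and 72. A class was compared between 2 libraries only where both held at least 50 of its cells, so the D2 smooth muscle-like cells were not compared. In the fibroblast-like class 13 of 13 fibroblast markers were detected in each library, with a summed level of 46502, 34875 and 75315 CPM (UMIs of the gene scaled to the same total in every class sum) in Sham, D2 and D7. In the monocyte/macrophage-like class 13 of 13 of its own markers were detected in each library, and in the endothelial-like class 12 of 12. Detection alone did not tell classes apart, since 13 of 13 fibroblast markers were also detected in the monocyte/macrophage-like class of each library. The classes were named from these same markers, so the counts of detected markers are no check of the names. The libraries held 39756684 to 100571340 UMIs, with 4096.5 to 6777 UMIs in the median cell kept, and 43 to 51 barcodes of each library also occurred in another.

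Within the fibroblast-like class, the libraries drew on different clusters. Of the Sham cells, 62.6% lay in cluster 2, a shallow cluster led by Rbp4, Inmt and Fmo2, a further 19.7% in cluster 12, led by Pi16 and Sema3c, and 16.1% in cluster 15, led by Penk and Dkk2. Cluster 1, led by Mfap4, Kcnma1 and Cthrc1, held 0.570% of the Sham, 74.1% of the D2 and 80.4% of the D7 cells. The median depth of a fibroblast-like cell was 1834 UMIs in Sham, 10602 in D2 and 11988 in D7. Shares of cells with a UMI are therefore given after every cell was thinned to 1000 UMIs, which left out 1296 Sham, 7 D2 and 141 D7 cells.

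The RefSeq promoter windows of GRCm38.p6 (250 bases before to 50 bases after an annotated start, the same build as mm10) held 6 of the 10 members. Those of 4 members whose levels in fibroblast-like cells stood furthest apart between libraries, or in opposite directions, are shown, so that the sequence upstream of each can be read beside its level. Capitals mark matches to the motifs searched on both strands: TATAAA, the letters of the TATA box, TGANTCA, the AP-1 site, CATTCC, the core of the TEAD site, and the CArG box. The Postn window lies at chr3:54360857-54361156 on the plus strand, that of Tnc at chr4:64046966-64047265 on the minus strand, that of Tnn at chr1:160153526-160153825 on the minus strand, and that of Tnxb at chr17:34670285-34670584 on the plus strand.
Postn promoter: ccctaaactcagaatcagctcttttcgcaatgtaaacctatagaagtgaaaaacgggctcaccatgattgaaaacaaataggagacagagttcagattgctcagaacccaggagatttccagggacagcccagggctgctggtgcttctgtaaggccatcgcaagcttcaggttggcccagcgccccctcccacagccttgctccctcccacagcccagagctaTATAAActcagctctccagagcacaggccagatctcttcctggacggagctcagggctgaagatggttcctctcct
Tnc promoter: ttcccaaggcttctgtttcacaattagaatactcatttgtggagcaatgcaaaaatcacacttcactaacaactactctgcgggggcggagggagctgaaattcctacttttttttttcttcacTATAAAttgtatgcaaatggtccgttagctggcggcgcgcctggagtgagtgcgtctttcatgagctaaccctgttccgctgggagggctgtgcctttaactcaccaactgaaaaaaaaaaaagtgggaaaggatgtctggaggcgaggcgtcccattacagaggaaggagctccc
Tnn promoter: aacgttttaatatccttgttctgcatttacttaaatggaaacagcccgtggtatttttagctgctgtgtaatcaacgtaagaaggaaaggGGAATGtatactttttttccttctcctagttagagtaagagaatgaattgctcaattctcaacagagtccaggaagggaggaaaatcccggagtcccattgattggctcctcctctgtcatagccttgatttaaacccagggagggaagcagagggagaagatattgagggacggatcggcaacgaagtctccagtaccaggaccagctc
Tnxb promoter: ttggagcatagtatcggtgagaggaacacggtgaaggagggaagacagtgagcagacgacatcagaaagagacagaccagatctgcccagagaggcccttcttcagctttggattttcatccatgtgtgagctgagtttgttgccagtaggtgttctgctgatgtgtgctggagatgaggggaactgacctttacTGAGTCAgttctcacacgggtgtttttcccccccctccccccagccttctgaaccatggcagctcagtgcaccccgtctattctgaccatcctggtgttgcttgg
TATAAA occurred in the windows of Postn, Tnc and Thbs2, which is 3 of 6, against 13.6% of all 32851 windows. The match began 26 bases before the annotated start in Postn and 126 bases before it in Tnc and in Thbs2. In Thbs2 it lay on the strand opposite to the gene. The search took the letters at any place in the window, so the count is not one of TATA boxes in position. TGANTCA occurred in the Tnxb window alone among the 6, against 7.81% of all windows. CATTCC occurred in the Tnn window alone among the 6, on the strand opposite to the gene and so printed as its complement, against 14.7% of all windows. The CArG box occurred in none of the 6 and in 1.63% of all windows. A match describes letters in these windows and is not a site of binding.

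Tenascins are large multidomain glycoproteins of the matrix. Tnc (chr4:63959785-64047015, minus strand, 25 exons) encodes tenascin-C, which is made in wounds and binds integrins and fibronectin. Its level in fibroblast-like cells was 1.05 CPM in Sham (17 UMIs), 121 CPM in D2 (236 UMIs) and 93.4 CPM in D7 (3649 UMIs). Sham was thus near 0 and D2 and D7 were close to each other, with a D7 to D2 ratio of 0.771 (0.676 to 0.883). The D7 to Sham ratio was 89.4 (55.7 to 154) and the D2 to Sham ratio 116 (70.9 to 202). Tnc was sparse even where it was high: after thinning it was found in 0 of 2562 Sham cells (upper bound 0.144%), 3.96% of the D2 cells (1.09 to 9.83) and 4.14% of the D7 cells (3.45 to 4.91). In D2, 2 cells held 50% of its UMIs in the class, whereas in D7 it took 59 cells. In D7, 3627 of its UMIs lay in cluster 1, at 106 CPM, and 22 in cluster 21, led by Mmp3 and Sfrp4, whereas none were counted in clusters 2, 12 or 15. A second gene, 8030451A03Rik, overlaps Tnc on the other strand, and the sources used here do not state whether the authors' counting used strand.

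Tnn (chr1:160085029-160153580, minus strand, 22 exons) encodes tenascin-N, also called tenascin-W, known from bone and from tumour stroma. It had 0.123 CPM in Sham (2 UMIs), 81.1 CPM in D2 (158 UMIs) and 134 CPM in D7 (5249 UMIs). Before thinning it was found in 0.0518% of the Sham, 18.5% of the D2 and 27.5% of the D7 fibroblast-like cells, which differed in depth. After thinning it was found in 0 of 2562 Sham and 211 of 3022 D7 cells. In D2 it was found after thinning in 0 of 22 cells with Tnxb and in 5.06% of 79 without. With 2 UMIs in Sham the D7 to Sham ratio, 1093, had an interval of 302 to 9025. Outside the fibroblast-like class Tnn was at 0 to 6.25 CPM in the smooth muscle-like, endothelial-like, lymphatic endothelial-like, Schwann-like and monocyte/macrophage-like cells of every library.

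Tnxb (chr17:34670535-34719815, plus strand, 41 exons) encodes tenascin-X, a protein of resting connective tissue that binds collagen fibrils. Unlike the 2 others it was highest in Sham. It had 603 CPM in Sham (591 to 615), 111 CPM in D2 (96.6 to 127) and 134 CPM in D7 (130 to 137), that is 5.44-fold lower in D2 than in Sham (4.75 to 6.25) and 4.52-fold lower in D7 than in Sham (4.37 to 4.67). After thinning it was found in 39.1% of the Sham, 21.8% of the D2 and 14.3% of the D7 cells. Within the clusters that could be compared the difference was small: the D7 to Sham ratio was 0.870 in cluster 2 (0.688 to 1.09), 0.773 in cluster 12 (0.728 to 0.820) and 0.848 in cluster 15 (0.723 to 0.990). Cluster 1, which held most D7 and D2 cells and 0.570% of the Sham cells, had 99.4 CPM in D7 and 86.6 CPM in D2. The D7 to Sham difference of the class was thus larger than that inside clusters 2, 12 and 15. Those clusters held 5.31%, 5.06% and 1.99% of the D7 fibroblast-like cells, and clusters 1 and 21 had too few Sham cells for a ratio. The 2 libraries differed in cluster makeup, and the part of this in the class ratio was not tested. Taken as a mean over cells, which gives shallow cells the same weight as deep ones, Tnxb stood less than 2-fold apart between D2 and Sham, at a ratio of 0.662. Tnxb overlaps Gm24389 and the pseudogene Cyp21a2-ps on the other strand.

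In D7 fibroblast-like cells Tnxb was found in a lower share of the cells with a Tnc UMI than of those without. Of 125 thinned cells with a Tnc UMI, 0 had a Tnxb UMI (upper bound 2.91%), against 14.9% (13.6 to 16.3) of the 2897 cells without Tnc. Of 211 cells with Tnn, 3.79% (1.65 to 7.33) had Tnxb, against 15.1% (13.8 to 16.5) of those without. Tnn was found in 21.6% (14.7 to 29.8) of the cells with Tnc, against 6.35% (5.49 to 7.30) of the cells without. The same held inside cluster 1, where 0 of 119 cells with Tnc had Tnxb, against 12.9% of those without. Before thinning 21.7% of 603 cells with Tnc had Tnxb, against 53.9% of 2560 cells without. These pairs were chosen after their values had been seen, and all cells came from 1 library. Cells with Tnc were deeper before thinning, with a median of 19263 UMIs, against 12264 in those without.

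**Figure D1:**
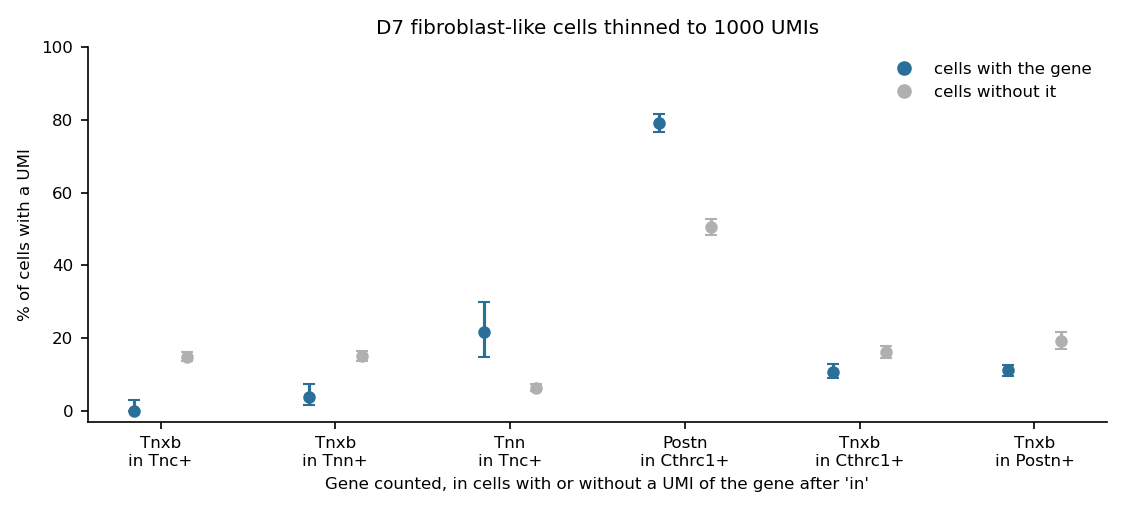
Share of D7 fibroblast-like cells, thinned to 1000 UMIs, that had a UMI of one gene (vertical axis, percent) among the cells with and without a UMI of a second gene (horizontal axis, pairs). Points are shares and bars are exact 95% intervals. Tnxb was at 0% in the 125 cells with Tnc and at 14.9% in those without, and Postn at 79.2% in cells with Cthrc1 and at 50.5% in those without.

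Thrombospondins are secreted calcium-binding proteins. Thbs1 (chr2:118111876-118127133, plus strand, 22 exons) encodes thrombospondin-1, an activator of latent TGF-beta and a ligand of the receptors CD36 and CD47. In fibroblast-like cells it had 16.9 CPM in Sham, 58.5 CPM in D2 and 130 CPM in D7. The D7 to Sham ratio was 7.67 (6.79 to 8.69) and the D2 to Sham ratio 3.46 (2.76 to 4.32). With free RNA subtracted, and without removal of doublets, the D2 to Sham ratio of CPM + 1 was 2.31 and 2.60 and Thbs1 was no longer called. These levels were low beside those of smooth muscle-like, neutrophil-like and monocyte/macrophage-like cells, and B-like cells, which are not known to make it, read 0.829 CPM in Sham, 45.3 CPM in D2 and 111 CPM in D7. After thinning, 1.6% of the Sham, 7.92% of the D2 and 7.28% of the D7 fibroblast-like cells had Thbs1, against 0%, 3.85% and 2.83% of B-like cells, whose median depths were 4117, 4573 and 3525 UMIs. The D2 shares of the 2 classes had overlapping intervals (3.48 to 15 and 2.12 to 6.37). When each library was clustered on its own, the D7 to D2 ratio of Thbs1, 2.22 (1.84 to 2.69), turned to 0.968, and it was 1.97 where cells were classed 1 by 1 and 1.32 as a mean over cells.

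Thbs2 (chr17:14665500-14694235, minus strand, 22 exons) encodes thrombospondin-2, which is known to hold back vessel growth and to shape collagen fibrils. In fibroblast-like cells it had 64.6 CPM in Sham, 98 CPM in D2 and 324 CPM in D7. D7 stood above both others, with a D7 to Sham ratio of 5.02 (4.72 to 5.35) and a D7 to D2 ratio of 3.31 (2.87 to 3.84), while the D2 to Sham ratio was 1.52 (1.29 to 1.77). The size of its D7 to Sham ratio differed between clusters. It was 3.06 in cluster 12 (2.69 to 3.48) and 2.39 in cluster 2, where 13 D7 UMIs left it below the minimum. In cluster 15 it was 0.753 (0.502 to 1.09), an interval that includes 1, so no direction is given there. Comp (chr8:70373558-70382066, plus strand, 19 exons) encodes cartilage oligomeric matrix protein, the fifth thrombospondin, which joins collagen fibrils in cartilage and tendon. It had 44.6 CPM in Sham, 34.9 CPM in D2 (68 UMIs) and 381 CPM in D7, so that D7 was again apart from the 2 others. The D7 to D2 ratio was 10.9 (8.60 to 14.1) and the D2 to Sham ratio 0.783 (0.602 to 1.01). Comp was found in 4.53% of the Sham, 5.94% of the D2 and 25.9% of the D7 cells after thinning.

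Comp was also higher in D7 inside clusters, and unevenly so. Cluster 2 had 287 CPM in D7, against 117 CPM in Sham, a ratio of 2.45. Cluster 15 had 192 CPM in D7, against 57.2 CPM in Sham, a ratio of 3.36. In cluster 12 the D7 level was 53.8 CPM and the Sham level 1.2 CPM, a ratio of 46.5. In cluster 1 the D7 to D2 ratio of Comp was 13.6, larger than that of Postn (3.62), Thbs2 (3.61), Fn1 (3.38) and Thbs1 (2.76).

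Postn (chr3:54361109-54391037, plus strand, 22 exons) encodes periostin, which binds collagen and integrins and is known as a product of activated fibroblasts. Its level in fibroblast-like cells was 267 CPM in Sham (259 to 275), 733 CPM in D2 (695 to 772) and 2553 CPM in D7 (2537 to 2568). The libraries were ordered Sham, D2, D7 with no overlap of their counting intervals. The D7 to Sham ratio was 9.57 (9.28 to 9.87), the D7 to D2 ratio 3.48 (3.31 to 3.67) and the D2 to Sham ratio 2.75 (2.59 to 2.92). After thinning 10.7% of the Sham, 26.7% of the D2 and 60.6% of the D7 cells had Postn, whereas no B-like cell of Sham or D2 did and 1.54% of those of D7 did. Postn was higher in D7 than in Sham within each cluster compared, with 1852 CPM in D7 and 459 CPM in Sham in cluster 12, 615 CPM in D7 and 119 CPM in Sham in cluster 15, and 254 CPM in D7 and 45.4 CPM in Sham in cluster 2.

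Cthrc1 (chr15:39076932-39087121, plus strand, 4 exons) encodes collagen triple helix repeat containing 1, a secreted protein known from injured rat arteries. It had 2.64 CPM in Sham (43 UMIs), 539 CPM in D2 (1051 UMIs) and 787 CPM in D7 (30744 UMIs), so D2 was already most of the way to D7, with a D7 to D2 ratio of 1.46 (1.37 to 1.55). After thinning it was found in 0.312% of the Sham, 23.8% of the D2 and 35.1% of the D7 cells. D7 was also higher than Sham among cells of the same cluster, in a clustering that left Cthrc1 out: cluster 12 had 733 CPM in D7, against 2.70 CPM in Sham, a ratio of 271 (177 to 439), cluster 15 had 105 CPM in D7, against 0.927 CPM in Sham, and cluster 2 had 132 CPM in D7, against 3.91 CPM in Sham. Of 1060 thinned D7 cells with Cthrc1, 79.2% (76.7 to 81.7) had Postn, against 50.5% (48.2 to 52.7) of the 1962 without it. Cells with Cthrc1 were also deeper before thinning, with a median of 15303 UMIs, against 10711.

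Sparc (chr11:55394500-55423183, minus strand, 10 exons) encodes osteonectin, a collagen-binding protein that takes part in fibril assembly. It was present in nearly every fibroblast-like cell, in 92.5% of the Sham, 94.1% of the D2 and 99.5% of the D7 cells after thinning. Its level was 5089 CPM in Sham, 6766 CPM in D2 and 13581 CPM in D7. The D7 to Sham ratio was 2.67 (2.65 to 2.69), or 1.72 as a mean over cells, and the D7 to D2 ratio, 2.01 (1.97 to 2.04), lay at the 2-fold line and ran from 1.69 to 2.21 over the alternatives. Within clusters the D7 to Sham ratio was 2.78 in cluster 12 (9358 CPM in D7, 3363 CPM in Sham), and less than 2-fold in cluster 15, at 1.81, and in cluster 2, at 1.40.

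Fn1 (chr1:71585520-71653200, minus strand, 46 exons) encodes fibronectin, the adhesive glycoprotein on which many matrix fibrils assemble. In fibroblast-like cells it had 2261 CPM in Sham, 711 CPM in D2 and 2126 CPM in D7. Only D2 stood apart: it was 3.18-fold lower than Sham (3.01 to 3.36), and the D7 to D2 ratio was 2.99 (2.84 to 3.16), while the D7 to Sham ratio was 0.940 (0.929 to 0.952). After thinning 63.5% of the Sham, 40.6% of the D2 and 69.2% of the D7 cells had Fn1. Within clusters the D7 to Sham ratio was 0.880 in cluster 2, 1.42 in cluster 12 (4902 CPM in D7, 3463 CPM in Sham) and 1.62 in cluster 15. Fn1 overlaps Apol7d on the other strand.

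**Figure D2:**
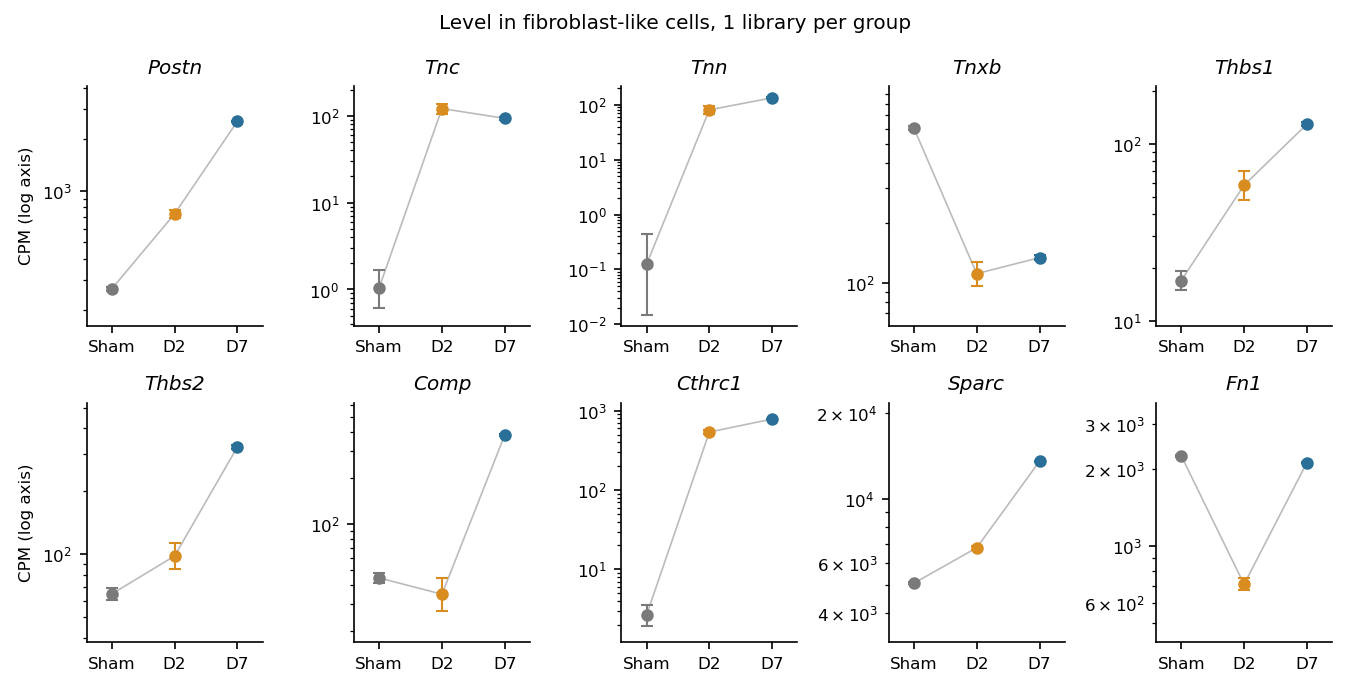
Level of each of the 10 genes in fibroblast-like cells (vertical axes, CPM on a log axis with a range of its own in each panel) in the Sham, D2 and D7 libraries (horizontal axes). Points are the summed level of the class in 1 library and bars are exact 95% Poisson intervals. Tnxb is highest in Sham, Fn1 is lowest in D2, Tnc is near 0 in Sham and close in D2 and D7, and Postn, Comp and Sparc are highest in D7.

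Over the class, a gene was called apart when it reached 50 CPM and 20 UMIs in the higher library and its ratio of CPM + 1 was at least 2. In D7 over Sham all 10 members passed the minimum, 8 were higher and 1, Tnxb, was lower, where 7.43% of the 3766 genes above the minimum were higher and 10.4% were lower. The median log2 ratio was 2.97 over the members and -0.05 over all genes above the minimum. In D2 over Sham 9 members passed, 5 were higher and 2, Tnxb and Fn1, were lower, where 13.8% of all genes were higher and 14.8% lower. The median was 1.45 over those 9 and 0.07 over all genes. In D7 over D2 6 of 10 were higher and 0 lower, where 6.46% of all genes were higher and 6.06% lower. The members had been chosen with these values in view, so nothing further is read from the counts. The D2 fibroblast-like class rests on 108 cells: 9 of them held 50% of its Postn UMIs, 13 of its Cthrc1, 3 of its Tnn and 3 of its Thbs1 UMIs. Over the other ways of forming classes it ran from 80 cells, with no doublets removed, to 401 with each library clustered on its own. The median depth was 10602 UMIs in the 108 cells and 958 in the 401. Without removal of doublets the 5 higher members of D2 over Sham became 2, and the ratio of CPM + 1 was then 22.3 for Tnc and 20 for Tnn. As a mean over cells, the D7 to Sham ratio of CPM + 1 was 4.48 for Comp, 112 for Cthrc1, 79.6 for Tnn, 16.5 for Postn and 0.389 for Tnxb.

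A thinned fibroblast-like cell had a UMI of 2 members in the median Sham and D2 cell and of 3 in the median D7 cell. The range between the quartiles ran from 2 to 3 members in Sham and D2 and from 2 to 4 in D7. Cells with 5 or more members were 0.468% of Sham cells, all of them with exactly 5, whereas in D7 14.9% had 5 members, 5.56% had 6 and 1.26% had 7. No thinned cell had 9 or 10.

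Smooth muscle-like cells held Thbs1, Tnc and Postn in Sham as well as in D7. Their leading genes included the contractile markers Acta2 and Myh11 and the pericyte marker Rgs5. Thbs1 had 886 CPM in D7 and 784 CPM in Sham, a ratio of 1.13 (1.04 to 1.23), and was found in 27.8% of D7 and 30.5% of Sham cells after thinning. Tnc had 423 CPM in D7 and 385 CPM in Sham, a ratio of 1.1 (0.971 to 1.25), and Postn 531 CPM in D7 and 434 CPM in Sham. Those 3 genes were thus less than 2-fold apart in smooth muscle-like cells. The 304 smooth muscle-like cells of D7 held 27.0% of all Tnc UMIs of their library, and the 149 of Sham held 86.3% of theirs. The fibroblast-like class held 64.7% in D7 and 4.86% in Sham. Both genes were concentrated in few cells, with 50% of the Tnc UMIs in 13 D7 and 6 Sham cells and 50% of the Thbs1 UMIs in 11 D7 and 12 Sham cells. No cluster was named pericyte-like. With classes assigned cell by cell, the D7 library had 222 smooth muscle-like and 231 pericyte-like cells, and the Sham library 194 and 128.

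Fn1, Cthrc1 and Sparc were higher in D7 smooth muscle-like cells. Fn1 had 1219 CPM in D7, against 298 CPM in Sham, a ratio of 4.09 (3.58 to 4.68). Cthrc1 had 94.6 CPM in D7 (341 UMIs), against 5.10 CPM in Sham (4 UMIs), a ratio of 18.6 (7.19 to 68.5). Sparc had 4166 CPM in D7, against 1975 CPM in Sham, a ratio of 2.11 (2.00 to 2.22). Tnxb had 42.2 CPM in D7, against 90.5 CPM in Sham, 2.14-fold lower (1.59 to 2.86). That made 3 of 8 members above the minimum higher and 1 lower, where 10.9% of all genes were higher and 8.43% lower. Marker levels moved with these values: the 13 fibroblast markers, all detected in both, summed to 10506 CPM in D7 and 4522 CPM in Sham smooth muscle-like cells, the 10 smooth muscle markers to 13419 CPM in D7 and 32173 CPM in Sham, and the 8 pericyte markers to 4674 CPM in D7 and 2529 CPM in Sham. An estimate of free RNA in the class was 6.40% in D7 and 17.8% in Sham, and with it subtracted the Tnxb ratio was 0.810. The part of either in the results was not tested. Cthrc1 and Fn1 kept a ratio above 2 under each alternative with at least 10.3 and 3.03, while Sparc ran from 1.79 to 2.60.

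In endothelial-like cells 3 members passed the minimum: Thbs1, Fn1 and Sparc. Thbs1 had 46.0 CPM in Sham (36.9 to 56.6), 208 CPM in D2 (185 to 234) and 304 CPM in D7 (284 to 325). The D2 to Sham ratio was 4.53 (3.57 to 5.81) and the D7 to Sham ratio 6.61 (5.31 to 8.33). After thinning 3.29% of the Sham, 13.6% of the D2 and 11.2% of the D7 cells had it, each above the share of B-like cells of the same library, and 6, 6 and 7 cells held 50% of its UMIs. Markers of neutrophils, in which Thbs1 was high, were also higher in D2 and D7 than in Sham, but in another order. The 10 neutrophil markers summed to 40.3 CPM in Sham, 1107 CPM in D2 and 312 CPM in D7 endothelial-like cells. Of them 6, 9 and 9 were detected, with Ly6g at 0 in each. They were thus highest in D2, whereas Thbs1 was highest in D7. The 13 monocyte/macrophage markers, all detected, summed to 718 CPM in Sham, 262 CPM in D2 and 523 CPM in D7. Estimated free RNA in the class, taken in part from the neutrophil markers above, was 1.24% in Sham, 9.53% in D2 and 8.98% in D7. With it subtracted, or under any other alternative run, the Thbs1 ratios stayed at or above 3.05 in D2 over Sham and 4.87 in D7 over Sham, and the part of neutrophil RNA was not tested. Fn1 was again lowest in D2, with 182 CPM in Sham, 52.6 CPM in D2 and 426 CPM in D7. It was 3.45-fold lower in D2 than in Sham (2.69 to 4.49), a ratio that became 0.783 when each library was clustered on its own. With free RNA subtracted the D2 level fell to near 0, at a ratio of CPM + 1 of 0.00584. That ratio gives no size for the difference, since by this estimate D2 Fn1 did not stand above free RNA. The Fn1 D7 to Sham ratio of 2.34 (2.08 to 2.65) was 1.34 as a mean over cells, and 7 of 396 D7 cells held 50% of the UMIs. Sparc had 1764 CPM in Sham, 3292 CPM in D2 and 2685 CPM in D7, less than 2-fold apart throughout. Of the 3, 1 was higher and 1 lower in D2 over Sham, where 10.2% of all genes were higher and 10.3% lower. In D7 over Sham 2 were higher and 0 lower, where 5.44% of all genes were higher and 6.42% lower, and in D7 over D2 1 was higher and 0 lower, where 2.25% were higher and 1.02% lower.

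Comp and Cthrc1 were below the minimum in endothelial-like cells, but stood higher relative to fibroblast-like cells than the fibroblast markers Col1a1, Col1a2, Col3a1, Dcn and Lum did. In Sham, Comp had 39.8 CPM in endothelial-like and 44.6 CPM in fibroblast-like cells, and Cthrc1 had 11.4 CPM (22 UMIs) in endothelial-like and 2.64 CPM in fibroblast-like cells. Set against their fibroblast-like level these were 89.2% and 429.8%, where those markers stood at 0.589% to 0.939% of theirs. The fibroblast-like Sham level of Cthrc1 rests on 43 UMIs, so its percentage has a denominator near 0. Cthrc1 stood at 4.16% in D2 and 3.27% in D7, and Comp at 18.1% in D2 and 3.52% in D7. Those markers stood at 0% to 0.957% in D2 and 0.494% to 1.87% in D7. Comp had 6.31 CPM in D2 and 13.4 CPM in D7 endothelial-like cells. In lymphatic endothelial-like cells Comp had 13.2 CPM in D7 (12 UMIs), against 74.9 CPM in Sham (122 UMIs), 5.68-fold lower, while it was higher in D7 fibroblast-like cells.

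The lymphatic endothelial-like class had 5 members higher and 2 lower in D7 over Sham of 7 above the minimum, where 3.92% of all genes were higher and 4.04% lower. Tnc had 132 CPM in D7, against 6.76 CPM in Sham. Thbs1 had 376 CPM in D7, against 55.3 CPM in Sham. Postn, Sparc and Fn1 had ratios of 3.74, 3.75 and 3.15, and Tnxb, with 120 CPM in D7 and 245 CPM in Sham, was 2.04-fold lower. Schwann-like cells had few UMIs, 2175.5 in the median D7 cell and 2110.0 in the median Sham cell. The class was unstable: its 72 D7 cells ran from 28 to 90 and its 57 Sham cells from 50 to 141 over the other ways of forming classes, so some of these gave fewer D7 cells than the 50 required. In D7 over Sham 4 of their 5 members above the minimum were higher and 0 lower, where 20.4% of all genes were higher and 11% lower. There Fn1 had 1103 CPM in D7, against 83.0 CPM in Sham, with 50% of the D7 UMIs in 3 cells. Postn had 2105 CPM in D7, against 486 CPM in Sham, and Tnc 350 CPM in D7, against 53.4 CPM in Sham. Cthrc1 was at 62.5 CPM in D7 and at 0 UMIs in Sham, which makes it at least 3.51-fold higher against a floor of 3 counts. In Sham Schwann-like cells the fibroblast markers Col1a1, Col1a2, Col3a1, Dcn and Lum stood at 1.28% to 19.3% of their fibroblast-like level. In D7 they stood at 7.53% to 12.6%, where Cthrc1 stood at 7.94%, Fn1 at 51.8%, Postn at 82.5% and Tnc at 375%. The part of fibroblast RNA in these values was not tested.

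**Figure D3:**
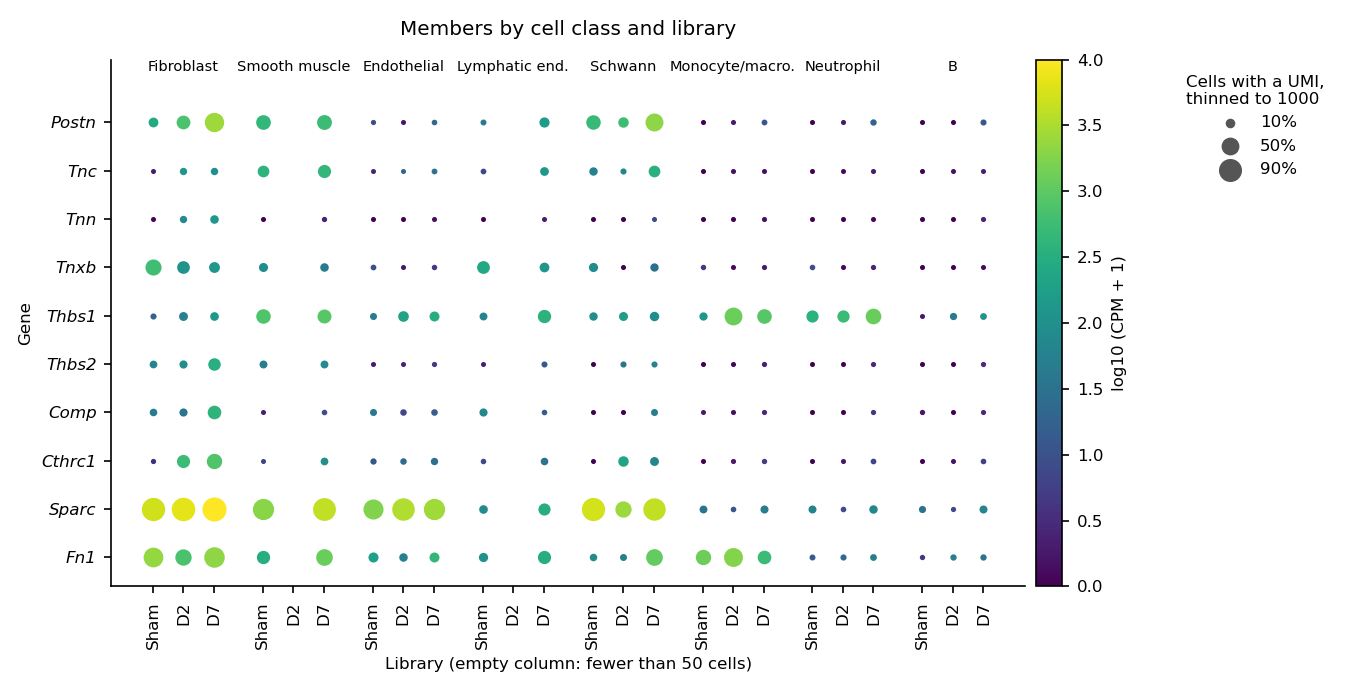
Level (colour, log10 of CPM + 1) and share of cells with a UMI after thinning to 1000 UMIs (dot area, percent) of the 10 genes (rows) by cell class and library (columns, Sham, D2 and D7 within each class). Columns of fewer than 50 cells are empty. Thbs1 is highest, at 1278 CPM, in D2 monocyte/macrophage-like cells, while Tnn exceeds 6.25 CPM only in the fibroblast-like columns of D2 and D7.

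Monocyte/macrophage-like cells held 2 of the members above the minimum, Thbs1 and Fn1. Thbs1 had 129 CPM in Sham (117 to 142), 1278 CPM in D2 (1268 to 1288) and 886 CPM in D7 (875 to 898). The D2 to Sham ratio was 9.91 (9.0 to 10.9), the D7 to Sham ratio 6.88 (6.24 to 7.60) and the D7 to D2 ratio 0.694. Over the alternatives the D2 to Sham ratio of Thbs1 ran from 6.11 to 79.1 and the D7 to Sham ratio from 4.45 to 53.3, both highest with each library clustered on its own, so the direction held and the size did not. After thinning 6.20% of the Sham, 50.2% of the D2 and 31.0% of the D7 cells had Thbs1, and before thinning 14.7%, 80.8% and 51.9%. In D2 the class held 84.0% of all Thbs1 UMIs of the library, where the fibroblast-like class held 0.150%. Fn1 had 1266 CPM in Sham, 1789 CPM in D2 and 534 CPM in D7, and it was found in 35.0%, 57.6% and 26.1% of thinned cells. D2 monocyte/macrophage-like cells held 95.5% of the Fn1 UMIs of their library, and the same class held 14% in D7 and 9.55% in Sham. In D2 over Sham 1 member was higher and 0 lower, where 8.35% of all genes were higher and 6.68% lower. In D7 over Sham 1 was higher and 1 lower, where 7.35% were higher and 7.51% lower, and in D7 over D2 0 were higher and 1 lower, where 1.61% were higher and 1.04% lower.

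The other 8 members were below 50 CPM in this class. Postn, Tnc, Tnn, Thbs2 and Cthrc1 had 0 UMIs in the 422 Sham cells. In D7 the Postn level of monocyte/macrophage-like cells was 0.391% of that of fibroblast-like cells, the Sparc level 0.339% and the Cthrc1 level 0.533%. The fibroblast markers Col1a1, Col1a2, Col3a1, Dcn and Lum, the only ones used here, stood at 0.310% to 0.473% of theirs. By contrast Thbs1 stood at 684% and Fn1 at 25.1% of the fibroblast-like level.

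The clusters of the class differed in both genes. Cluster 10, led by Chil3, Plac8 and Ly6c2, genes of blood-derived monocytes, had the most Thbs1 among the clusters with at least 50 cells in each library, with 213 CPM in Sham, 3237 CPM in D2 and 3178 CPM in D7. It was found in 10.4% of the Sham, 76.8% of the D2 and 65.3% of the D7 cells of that cluster after thinning. The D7 to D2 ratio was 0.982 (0.958 to 1.01) there, whereas Thbs1 was 6.15-fold lower in D7 than in D2 in cluster 8, led by Acp5 and Stab1 (110 CPM in D7, 673 CPM in D2), and 3.84-fold lower in cluster 9, led by Lyz1 and Retnla (162 CPM in D7, 621 CPM in D2). Clusters 3, led by Mmp12 and Il10, and 5, led by Hmox1 and Arg1, had ratios of 0.526 and 0.540. Thbs1 is itself among the leading genes of cluster 10, although it was left out of the clustering.

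Fn1 was lower in D7 than in D2 in each of the 5 clusters, by 2.66-fold in cluster 10 to 5.27-fold in cluster 8. In D2 over Sham it was higher in cluster 3 (1446 CPM in D2, 342 CPM in Sham) and in cluster 10 (2598 CPM in D2, 568 CPM in Sham), and less than 2-fold apart in cluster 9 (1516 CPM in D2, 2188 CPM in Sham). The lower D7 level of the whole class, 2.37-fold below Sham (2.29 to 2.46), was not shared by its clusters: D7 was 4.67-fold lower than Sham in cluster 9 but had ratios of 1.12 in cluster 3 and 1.72 in cluster 10. Cluster 14, led by Cd209f, Cd163 and Lyve1, stayed unnamed, and with its 601 Sham, 18 D2 and 117 D7 cells added to the class the ratio was 0.975. It was 1.90 when a class was given to each cell, so no direction is given for Fn1 in D7 over Sham monocyte/macrophage-like cells. Cluster 14 itself had little Thbs1, with 16.3 CPM in D7 and 2.12 CPM in Sham.

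**Figure D4:**
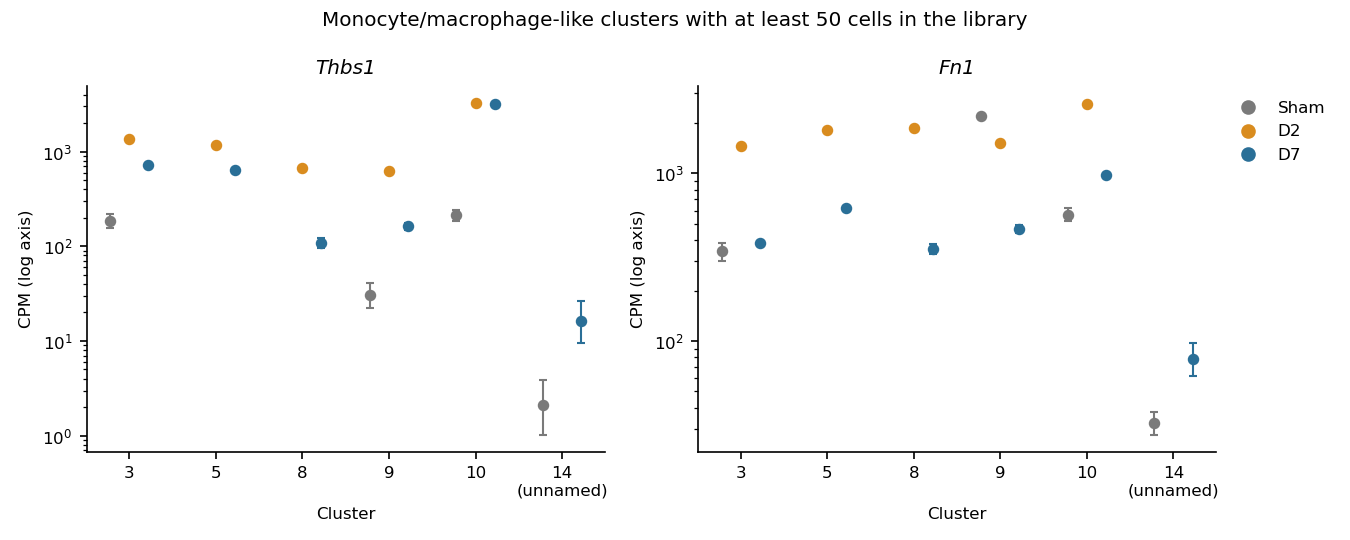
Level of Thbs1 (left) and Fn1 (right) in each monocyte/macrophage-like cluster and in unnamed cluster 14 (horizontal axis), in CPM on a log axis, for the Sham, D2 and D7 libraries (colours). Points are sums over the cells of 1 cluster in 1 library with at least 50 cells, and bars are exact 95% Poisson intervals. Thbs1 in cluster 10 is at 3237 CPM in D2 and 3178 CPM in D7, and Fn1 is lower in D7 than in D2 in every named cluster.

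Over the classes of at least 50 cells in a library, the order of Thbs1 levels in D7 was neutrophil-like (1205 CPM, 1179 to 1233), monocyte/macrophage-like (886 CPM, 875 to 898), smooth muscle-like (886 CPM, 856 to 917), lymphatic endothelial-like (376 CPM, 337 to 418), endothelial-like (304 CPM, 284 to 325) and fibroblast-like (130 CPM, 126 to 133), of which the second and the third did not differ beyond their counting intervals. In Sham smooth muscle-like cells were highest at 784 CPM, ahead of neutrophil-like (366 CPM) and monocyte/macrophage-like cells (129 CPM). In D2 monocyte/macrophage-like cells were highest at 1278 CPM, ahead of neutrophil-like (525 CPM) and endothelial-like cells (208 CPM), while the 16 smooth muscle-like cells of D2 read 417 CPM. Of the Postn UMIs, the fibroblast-like class held 88.5% in Sham, 71.5% in D2 and 96.2% in D7. In whole libraries, where fewer cells of a type and less RNA per cell cannot be told apart, Sparc had 2333 CPM in Sham, 237 CPM in D2 and 5761 CPM in D7, a different order from that within fibroblast-like cells.

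**Figure D5:**
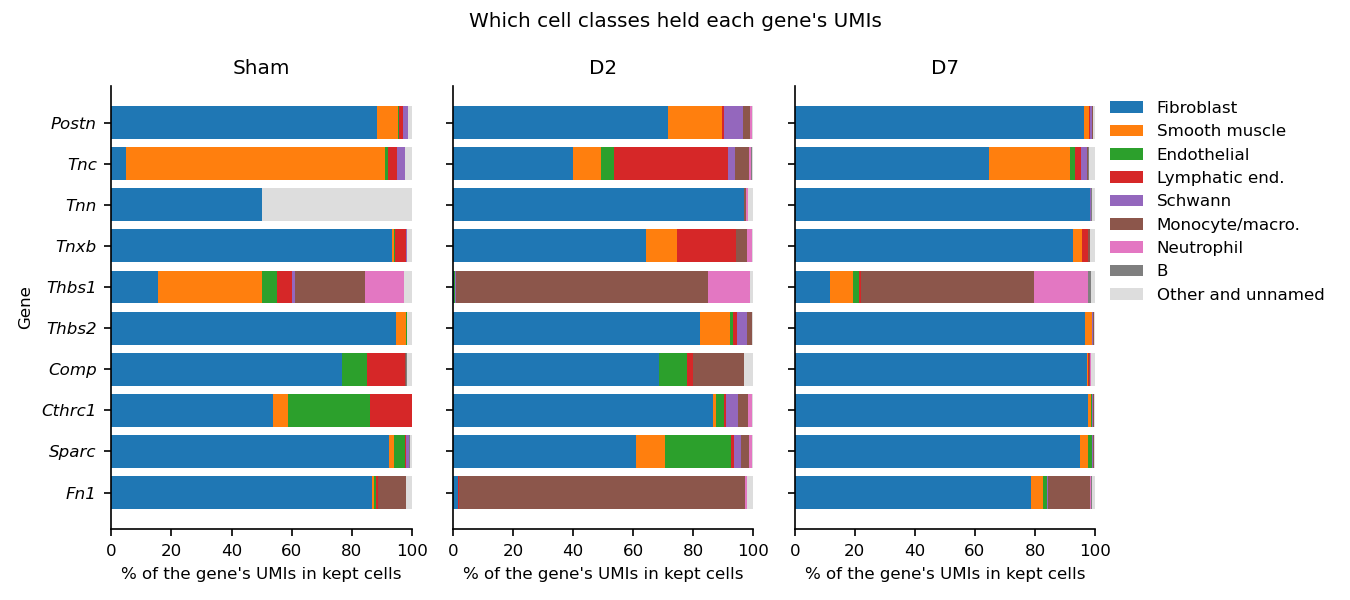
Percent of each gene's UMIs (horizontal axes) that lay in each cell class (colours) in the Sham, D2 and D7 libraries (panels), over all cells kept, with the genes down the vertical axis. The fibroblast-like class holds 88.5%, 71.5% and 96.2% of the Postn UMIs, while the monocyte/macrophage-like class holds 23.2%, 84.0% and 57.4% of the Thbs1 UMIs.

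Other matricellular genes were listed (28, all found), together with 23 receptors and 19 matrix partners of the members. The lists, like the members, were written with earlier results of these data known. In fibroblast-like cells D7 over Sham, 7 of 16 other matricellular genes above the minimum were higher and 2 lower, where 7.43% of all genes were higher and 10.4% lower. Spp1 (osteopontin) had 241 CPM in D7, against 1.6 CPM in Sham, and Ccn4, a CCN family member, 92.3 CPM in D7, against 1.35 CPM in Sham. Matn2 (matrilin-2) had 85.3 CPM in D7, against 8.54 CPM in Sham. In D2 over Sham 5 of 15 were higher, among them Ccn4 at 119 CPM and Spp1 at 123 CPM, and 4 were lower, among them Sparcl1, a relative of Sparc, at 21.6 CPM in D2, against 179 CPM in Sham, and Ccn3 at 11.3 CPM in D2, against 85.0 CPM in Sham. Of all genes 13.8% were higher and 14.8% lower there. Ccn3 had 120 CPM in D7 fibroblast-like cells, so it was low in D2 alone.

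Of the receptors, 1 of 13 was higher and 3 were lower in D7 over Sham fibroblast-like cells, a share of higher genes close to the 7.43% of all genes, with 10.4% of all genes lower. Ddr2, a collagen receptor kinase, had 161 CPM in D7, against 578 CPM in Sham, and the proteoglycan Sdc1 had 59.0 CPM in D7, against 8.54 CPM in Sham. Of the matrix partners 10 of 18 were higher and 1 lower, with Col1a1 at 19570.0 CPM in D7, against 3850.2 CPM in Sham, and Col3a1 at 24186 CPM in D7, against 6203 CPM in Sham. In smooth muscle-like cells 13 of 19 matrix partners were higher and 1 lower in D7 over Sham, where 10.9% of all genes were higher and 8.43% lower, with Col1a1 at 3159.9 CPM in D7, against 320 CPM in Sham, and Col12a1 at 228 CPM in D7, against 14 CPM in Sham. There Itga8, an integrin subunit that pairs into a receptor of Fn1 and Tnc, had 38.0 CPM in D7, against 254 CPM in Sham, and Itga5, the alpha subunit of the main fibronectin receptor, had 144 CPM in D7, against 44.6 CPM in Sham.

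In endothelial-like cells Cd36, a receptor of Thbs1, was called lower at both times, with 2863 CPM in Sham, 958 CPM in D2 and 885 CPM in D7. Itgav, the integrin subunit alpha V, had 28.9 CPM in Sham, 95.4 CPM in D2 and 119 CPM in D7. Of 7 receptors above the minimum 2 were higher and 1 was lower in D7 over Sham, where 5.44% of all genes were higher and 6.42% lower. In monocyte/macrophage-like cells 5 of 12 receptors were higher and 2 lower in D2 over Sham, where 8.35% of all genes were higher and 6.68% lower. Stab1, a scavenger receptor of Sparc, had 395 CPM in D2, against 26.0 CPM in Sham, Itgb5 had 231 CPM in D2, against 27.9 CPM in Sham, and Cd36 had 103 CPM in D2, against 313 CPM in Sham. Of the other matricellular genes 2 of 3 were higher in the same comparison, Spp1 at 1298 CPM in D2, against 1.88 CPM in Sham, and Tgfbi at 1139.7 CPM in D2, against 232 CPM in Sham. Unnamed cluster 14, led by Cd209f, Cd163 and Lyve1, held 601 Sham and 18 D2 cells that are not in these sums. Its best-scoring class was monocyte/macrophage, and its part in these receptor and matricellular values was not tested.

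Members were also compared by the shape of their levels over 29 sums of 1 class in 1 library with at least 50 cells, as Pearson's r of log2(CPM + 10) against 7990 other genes. The sums share libraries and cell types, so r is a description. Among members, Postn and Thbs2 were most alike (0.883), then Postn and Tnc (0.854), and Thbs1 was least like the others, from -0.04 with Comp to 0.382 with Fn1. The 3 genes most like each member were Angptl2 (0.976), Scarf2 and Map1lc3a for Postn, 8030451A03Rik (0.894), Tgfb1i1 and Samd4 for Tnc, Fbn2 (0.910), Aqp2 and Cilp for Tnn, and Igfbp5 (0.939), Vldlr and Fndc1 for Tnxb. For Thbs1 they were Gm13986 (0.763), Tmem38b and Tgm2, for Thbs2 Gpx3 (0.967), Gria4 and Cygb, and for Comp Gxylt2 (0.862), Igsf3 and Npas2. For Cthrc1 they were C1qtnf6 (0.909), Fkbp11 and Ccn4, for Sparc Serpinh1 (0.967), Mxra7 and Mxra8, and for Fn1 Nupr1 (0.872), Idh1 and Lamp1. The first gene named for Tnc is the one that overlaps it on the other strand.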

How the data were processed

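UMI counts per gene and barcode were deposited by the authors as 1 raw matrix per library, and all values were whole numbers. The labels do not say how the cells of the pooled mice can be told apart. Cell Ranger 7.1.0 wrote the matrices per the file headers. The submitters' processing notes list Cell Ranger 7.2.0, Seurat 5.0.1 and the build mm10. The strand setting of the counting is not given in the sources used here.

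A barcode was dropped if it had fewer than 300 genes, fewer than 500 UMIs or over 15% mitochondrial UMIs (306 in Sham, 217 in D2, 363 in D7). Scrublet (expected rate 8%) then removed 79 (1.06%), 485 (4.23%) and 228 (2.03%) as doublets, leaving 7372, 10988 and 10983 cells. Counts were scaled to 10000 per cell and logged, and 2000 variable genes without the members and other matricellular genes gave 30 principal components, 15 neighbours and, with the 3 libraries joined and no batch correction, 31 Leiden clusters (resolution 1). A cluster was named from 155 markers of 17 classes by its marker score and its 10 leading genes, which named 26 clusters. Naming thresholds were chosen with the clusters in view, so a difference from the study's own classes may come from the rebuilt names. Unnamed clusters held 833 Sham, 37 D2 and 309 D7 cells.

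For each class of each library the UMIs were added up and are given in CPM with exact Poisson intervals. Ratios of CPM carry exact conditional binomial intervals and shares exact Clopper-Pearson intervals, all at 95%. A gene was called apart when its ratio of CPM + 1 reached 2 and the higher library had 50 CPM and 20 UMIs. No p-value was computed. Counts of the 3' assay were not scaled by gene length, so levels are compared between libraries or classes and not between genes. Free RNA was estimated per class from genes of B and T cells, and subtracted as an alternative. Except in the monocyte/macrophage-like, dendritic-like and neutrophil-like classes, the neutrophil genes S100a8, S100a9, Retnlg and Cxcr2 were used too. All members are named, up to 4 genes of each other list per comparison by the size of the ratio, and the 3 genes most like each member. From those 4 the text gives a selection. The members and lists were chosen with earlier results of these data known. Tools were Python 3.11.15, NumPy 2.4.6, scanpy 1.11.5, pandas 2.3.3, leidenalg 0.10.2, SciPy 1.17.1, scikit-learn 1.9.0, matplotlib 3.10.9 and python-igraph 0.11.9.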

Additional observations from a re-analysis of the deposited data

Results flagged for a closer look

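Comp and Fn1 stood apart in opposite directions in different cell classes under the same comparison. These differences between classes were not tested, since each group is 1 library.

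Comp in D7 over Sham had a ratio of 8.54 in fibroblast-like cells and of 0.176 in lymphatic endothelial-like cells, where 12 UMIs in D7 stood against 122 in Sham. Fn1 in D7 over Sham had ratios of 4.09 in smooth muscle-like, 2.34 in endothelial-like, 3.15 in lymphatic endothelial-like and 13.3 in Schwann-like cells, and of 0.421 in monocyte/macrophage-like cells, the last of which did not keep its direction under other ways of forming the class. Fn1 in D7 over D2 had ratios of 2.99 in fibroblast-like, 8.10 in endothelial-like and 20.1 in Schwann-like cells, and of 0.298 in monocyte/macrophage-like cells. The Schwann-like values rest on 353 Fn1 UMIs in D7, 12 in D2 and 14 in Sham, and the 89 D2 cells of that class became 6 or 7 with the stricter cell filter, at either other Leiden resolution or with the matricellular genes kept for clustering, 36 where cells were classed 1 by 1, 0 when the libraries were clustered separately and 118 with no doublets removed.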

How the results depend on the processing

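With 1 library of pooled mice per group, no value here carries the spread between mice, and the rebuilt classes set which cells are summed. Alternatives were run for the fibroblast-like class in all 3 comparisons, for the endothelial-like and monocyte/macrophage-like classes against Sham, and for the smooth muscle-like class in D7 over Sham, but not for the lymphatic endothelial-like and Schwann-like classes or for the endothelial-like and monocyte/macrophage-like classes in D7 over D2. Of 33 called ratios of members in those, 21 stayed past 2-fold in the same direction under each of these alternatives. Of their 399 alternative values 362 were past 2-fold in the same direction, 35 were not, and 2 turned: Thbs1 in D7 over D2 fibroblast-like cells, to 0.968 when each library was clustered on its own, and Fn1 in D7 over Sham monocyte/macrophage-like cells, to 1.90 with classes assigned cell by cell. These ratios are of CPM + 1. Of 98 alternative counts of members apart, 73 were within 1.5 times the reported count.

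In fibroblast-like cells the 7 members apart in D2 over Sham became 4 with no doublets removed and 4 as a mean over cells. In endothelial-like cells the 2 of D2 over Sham became 6 with no minimum level, and the 2 of D7 over Sham became 8 with no minimum level and 1 as a mean over cells. In smooth muscle-like cells the 4 of D7 over Sham became 2 with the stricter cell filter (500 genes, 1000 UMIs), at Leiden resolution 2, at Leiden resolution 0.5, with the matricellular genes kept for clustering and as a mean over cells, and 7 with classes assigned cell by cell. In monocyte/macrophage-like cells the 1 of D2 over Sham became 2 with the stricter cell filter (500 genes, 1000 UMIs), with no doublets removed, at Leiden resolution 2, with each library clustered on its own and with classes assigned cell by cell, and 3 with no minimum level. The 2 of D7 over Sham became 1 with the stricter cell filter (500 genes, 1000 UMIs), with no doublets removed, at Leiden resolution 2, with each library clustered on its own and as a mean over cells, and 6 with no minimum level. With the cluster led by Cd209f, Cd163 and Lyve1 added to the class, an alternative chosen after seeing the data, the counts were 2 for D2 over Sham and 1 for D7 over Sham. The causes were not tested.

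In D2 the number of cells limits the values, with 108 fibroblast-like and 92 endothelial-like cells, and few cells held most UMIs of Tnc, Tnn and Thbs1. Depth per cell was lowest in Sham for fibroblast-like cells, 1296 of which fell under 1000 UMIs. No paired analysis was possible because each group is 1 library.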
